A study of Mus musculus with 19 samples.

Results

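The genes described here are 10 components and outputs of the circadian clock, NR1D1, NR1D2, DBP, TEF, HLF, NFIL3, ARNTL, CLOCK, PER2 and CRY1. They were taken by symbol from a table of 24982 genes counted in 19 bulk RNA-seq libraries of regulatory T cells (Tregs), and all 10 were found and passed the filter on low counts. CD4+FoxP3-GFP+ cells were sorted by their CD44 staining into CD44high and CD44low Tregs from injury-site draining lymph nodes of Foxp3DTR mice, in which the Foxp3 locus also drives a fusion of the diphtheria toxin receptor and GFP. Injured mice had received a burn 7 days before, and uninjured mice a sham treatment in water at room temperature. There were 4 libraries of CD44high and 5 of CD44low Tregs from uninjured mice, and 4 of CD44high and 6 of CD44low Tregs from injured mice. All groups carried the Foxp3DTR allele, and the methods describe the mice as matched for age and sex. The labels do not say whether a library holds cells of 1 mouse or of several, so the p-values measure the spread between libraries, which may be technical. The hour at which lymph nodes were taken is given neither by the labels nor by the methods.

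The mammalian clock is a transcriptional feedback loop. A heterodimer of ARNTL (BMAL1) and CLOCK binds E-box motifs and drives its own repressors, the period (PER) and cryptochrome (CRY) proteins, together with the nuclear receptors NR1D1 and NR1D2 (REV-ERBα and REV-ERBβ). The REV-ERB receptors silence ARNTL and NFIL3 through ROR response elements (ROREs), where the ROR receptors act in the opposite direction, and the bZIP activators DBP, TEF and HLF compete with the repressor NFIL3 at D-box motifs. Levels of many of these transcripts, NR1D1 and DBP among them, rise and fall within a day in most tissues, while in T cells NFIL3 also responds to cytokines.

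To show these 3 classes of motif at the genes themselves, the 250 bases before each start were searched on both strands in RefSeq promoters (GRCm38.p6). The E-box was searched as CACGTG, the D-box as TTATGNAA and the RORE as TAGGTCA, and no pattern holds another. The table held 9 of the 10 genes, in 13 windows, and PER2 had no entry. An E-box stood in 3 windows, both starts of TEF and the start of CRY1, a RORE in 1 window, that of NFIL3, and a D-box in 0 windows. Over all 32851 windows of this length, 6.02% held the E-box, 3.07% the D-box and 2.23% the RORE. The 3 genes with a match are printed below from 5′ to 3′ on the strand of the gene, with the match in capitals, and for TEF the window of its first start is given.
CRY1, chr10:85185055-85185304, minus strand, E-box from base -60: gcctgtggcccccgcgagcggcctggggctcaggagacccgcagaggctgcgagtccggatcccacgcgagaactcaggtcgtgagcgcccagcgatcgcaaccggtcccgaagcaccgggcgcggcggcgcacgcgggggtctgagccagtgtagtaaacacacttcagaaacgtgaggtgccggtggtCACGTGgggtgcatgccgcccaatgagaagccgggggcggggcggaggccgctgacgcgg
TEF, chr15:81802423-81802672, plus strand, E-box from base -127: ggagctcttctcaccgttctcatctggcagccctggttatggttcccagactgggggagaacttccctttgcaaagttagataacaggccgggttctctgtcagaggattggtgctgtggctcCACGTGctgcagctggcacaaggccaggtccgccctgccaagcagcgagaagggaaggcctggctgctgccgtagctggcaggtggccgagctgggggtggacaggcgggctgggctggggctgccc
NFIL3, chr13:52981040-52981289, minus strand, RORE from base -12, read here as its reverse complement: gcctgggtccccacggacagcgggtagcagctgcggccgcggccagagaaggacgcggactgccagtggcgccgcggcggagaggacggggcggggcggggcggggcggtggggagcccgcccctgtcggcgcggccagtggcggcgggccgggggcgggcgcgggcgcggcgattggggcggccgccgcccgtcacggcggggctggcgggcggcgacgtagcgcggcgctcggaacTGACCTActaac
Positions count back from the start, whose preceding base is -1. A match describes letters only, and binding was not measured. Only exact matches in these 250 bases were sought, so a window without one says nothing of sites elsewhere or of variant letters.

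Library totals lay between 5582234 and 9433610 counts. All 8 markers of the sort and of Tregs were detected in every group, and CD44 itself averaged 595 CPM (counts relative to library size, scaled by TMM factors) in uninjured CD44high against 133 in uninjured CD44low Tregs and 436 against 117 in injured mice. FOXP3 averaged between 70.7 and 115 CPM in the 4 groups. Sums of some marker lists moved with the groups, while those of B cells and of CD8 and NK cells overlapped. The 4 B cell markers summed to 96.4 to 190 CPM in uninjured CD44high and 68.3 to 136 in uninjured CD44low Tregs. In injured mice the sums were 92.1 to 203 and 94.7 to 167. The 4 CD8 and NK cell markers gave 46.4 to 67.8 and 50.0 to 67.6, then 54.3 to 72.6 and 47.6 to 60.1. Of these markers, CD79B and KLRB1C were higher in uninjured CD44high Tregs (edgeR adjusted p = 0.000370 and 0.000125). In injured mice KLRB1C was again higher in CD44high Tregs, at 10.2 to 16.6 against 0.719 to 4.31 CPM (edgeR adjusted p = 0.000195). CD79B did not pass there (edgeR adjusted p = 0.132). Within CD44high Tregs, all injured KLRB1C values lay above the highest uninjured value of 6.78 CPM, without passing the test (edgeR adjusted p = 0.0633). The CD8 and NK sums do not show this, since CD8B1 made up most of them. The summed level of 4 macrophage and dendritic cell markers was 60.0 to 131 CPM in uninjured CD44high and 19.8 to 37.2 in uninjured CD44low Tregs, and 80.3 to 220 and 31.5 to 139 in injured mice, with all 4 detected in each group. The summed level of 3 neutrophil markers was at most 1.69 CPM in uninjured mice and reached 19.1 in CD44high and 28.9 in CD44low Tregs of injured mice, where LY6G was at 0 in CD44low. Of 4 markers of stroma and endothelium, which PECAM1 dominated, the sum was 59.3 to 114 CPM in CD44high and 135 to 230 in CD44low Tregs. COL1A1 of these markers went the other way, at 1.43 to 3.22 CPM in uninjured CD44high Tregs and 0 in all but 1 library of uninjured CD44low Tregs (0.284 CPM), and at 0.664 to 2.26 against 0 to 0.571 CPM in injured mice. The 3 erythroid markers were at 0 throughout. The part of these cells in the results below was not tested. In bulk samples, fewer cells of a type and less RNA per cell cannot be told apart.

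**Figure D1:**
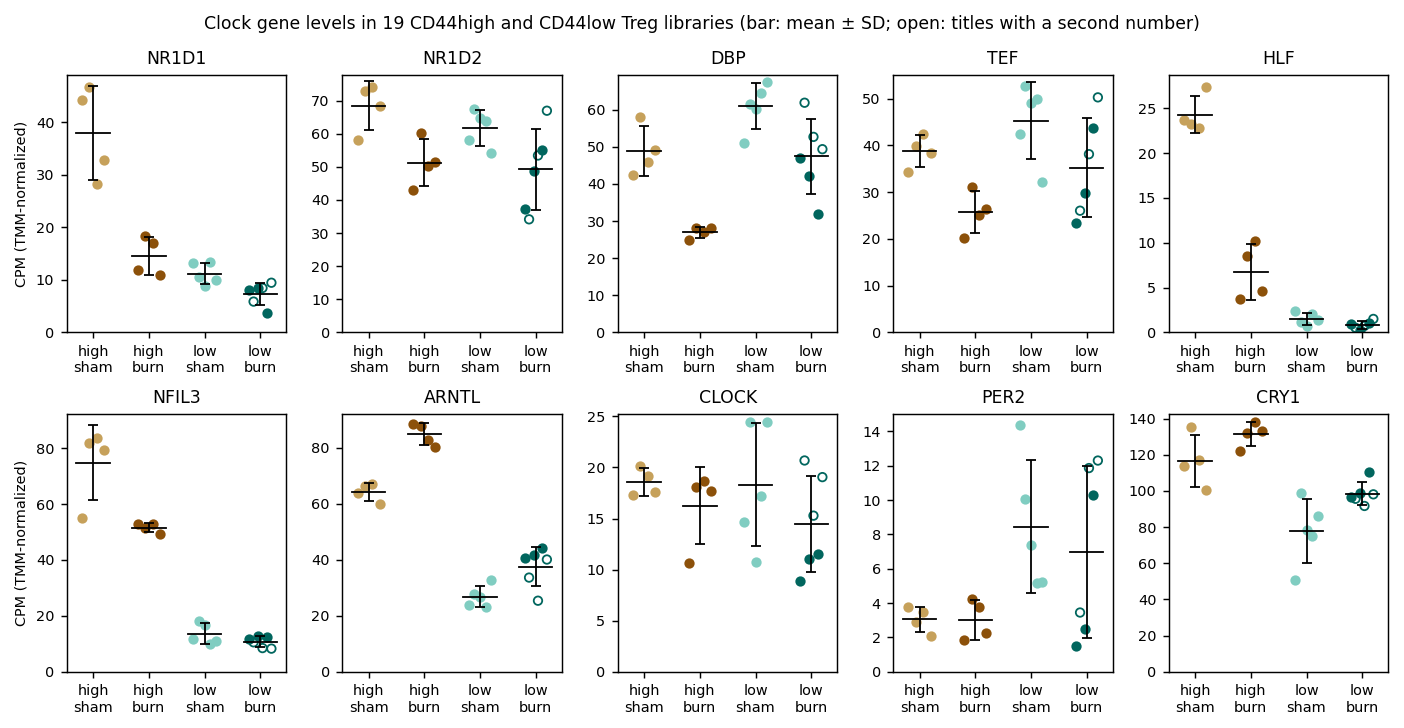
TMM-normalized CPM of each clock gene (y axis, from 0) in the 4 groups (x axis); points are libraries, open where the title carries a second number, and bars give the mean ± SD. HLF, NFIL3 and ARNTL of CD44high Tregs lie above all CD44low libraries in uninjured and in injured mice, and the 4 DBP values of injured CD44high Tregs lie below those of the other groups.

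Clock genes covered a wide range of levels. Per kilobase of exon, uninjured CD44high Tregs held 37.0 ± 6.63 CPM of NFIL3 (SD, n = 4) and 34.9 ± 4.29 of CRY1, which did not differ beyond their spread. Below them, DBP stood at 16.4 ± 2.25, NR1D2 at 12.6 ± 1.37 and NR1D1 at 12.4 ± 2.90 CPM per kilobase, and NR1D2 and NR1D1 overlapped. ARNTL followed at 8.54 ± 0.431, TEF at 4.92 ± 0.433 and HLF at 3.64 ± 0.315 CPM per kilobase. CLOCK (1.35 ± 0.0993) and PER2 (0.522 ± 0.126) were lowest. PER2 rested on 76 to 275 counts summed over a group, and CLOCK, a longer gene, on 474 to 590. In uninjured CD44low Tregs the order of levels per kilobase began with CRY1 (23.3 ± 5.33, n = 5) and DBP (20.4 ± 2.07), which overlapped, and ended with HLF at 0.225 ± 0.0999.

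The first question is how the subsets differ without injury. In uninjured mice, 5 of the 10 clock genes were higher and 1 was lower in CD44high than in CD44low Tregs at an adjusted p under 0.05 (edgeR's quasi-likelihood test, Benjamini-Hochberg over 11464 genes tested). HLF, NFIL3, NR1D1, ARNTL and CRY1 were higher, PER2 was lower, and NR1D2, DBP, TEF and CLOCK did not pass. The same test called 24.7% of all genes higher and 21.3% lower. The groups did not overlap for 6 clock genes, and for 40.7% of all genes. At an unadjusted p under 1e-06 and a change of 2-fold, 4 clock genes passed (HLF, NFIL3, NR1D1 and ARNTL), with 8.3% of all genes. The median log2 fold change was 0.37 for the 10 genes and 0.01 for all genes tested.

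The output regulators gave the largest differences among the 10. HLF, a PAR bZIP activator also known from hematopoietic stem cells, measured 23.7, 23.2, 22.9 and 27.4 CPM in uninjured CD44high Tregs. In uninjured CD44low Tregs it measured 2.35, 1.10, 0.710, 2.01 and 1.35 CPM. Each CD44high library lay far above every CD44low library, and the CD44low values rest on 49 counts in all 5 libraries. The log2 fold change was 4.00 ± 0.37 (SE, edgeR adjusted p = 3.09e-09), a 16.0-fold difference. NFIL3, the repressor that HLF competes with at D-boxes, was also higher in CD44high Tregs, at 54.9, 81.7, 83.6 and 79.4 CPM against 11.6, 18.3, 16.9, 10.1 and 11.1 CPM. Library 2 was the lowest of the CD44high values, yet far above the highest CD44low value. This gave a log2 fold change of 2.46 ± 0.18 (edgeR adjusted p = 8.76e-11).

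DBP and TEF, the other PAR bZIP activators, did not follow HLF. DBP was 48.9 ± 6.73 CPM in uninjured CD44high (n = 4) and 60.9 ± 6.21 in CD44low Tregs (n = 5), and the groups overlapped. The log2 fold change of DBP was -0.32 ± 0.15 (edgeR adjusted p = 0.0879), on the called side of the threshold when the compared groups were fitted alone (adjusted p = 0.0384). TEF was 38.7 ± 3.40 against 45.2 ± 8.25 CPM, a log2 fold change of -0.22 with a 95% interval of -0.63 to 0.18.

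Of the REV-ERB receptors, NR1D1 differed between the subsets. NR1D1 measured 44.2, 46.8, 28.2 and 32.8 CPM in uninjured CD44high and 13.3, 10.6, 8.80, 13.4 and 9.96 CPM in uninjured CD44low Tregs. All CD44high libraries stood above all CD44low libraries by a log2 fold change of 1.76 ± 0.23 (edgeR adjusted p = 1.36e-06). NR1D2 was 68.4 ± 7.38 against 61.6 ± 5.49 CPM and the groups overlapped, with a log2 fold change of 0.15 and a 95% interval of -0.18 to 0.48.

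In the core loop, ARNTL was higher in CD44high Tregs and its partner CLOCK was at similar levels. ARNTL measured 63.7, 66.5, 66.9 and 59.9 CPM in uninjured CD44high and 23.9, 27.6, 26.8, 23.0 and 32.7 CPM in uninjured CD44low Tregs. The libraries of each subset lay close together and the subsets were apart by a log2 fold change of 1.26 ± 0.14 (edgeR adjusted p = 8.96e-08). CLOCK gave 18.6 ± 1.36 and 18.3 ± 6.04 CPM, a log2 fold change of 0.02 with a 95% interval of -0.50 to 0.54, which leaves room for a change in either direction. The repressor CRY1 was 117 ± 14.3 CPM in uninjured CD44high and 77.9 ± 17.8 in CD44low Tregs, ranges that just did not touch (lowest CD44high value 101, highest CD44low value 99.1). Its log2 fold change was 0.58 ± 0.14 (edgeR adjusted p = 0.00115).

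PER2, the period repressor, was the clock gene lower in CD44high Tregs. It measured 3.74, 2.88, 3.50 and 2.09 CPM in uninjured CD44high and 14.4, 10.1, 7.38, 5.17 and 5.23 CPM in CD44low Tregs. Every CD44high library was below every CD44low library, but the CD44low libraries themselves spread widely. The log2 fold change was -1.48 ± 0.51 (edgeR adjusted p = 0.0220), and the call was lost without CD44high library 5 (adjusted p = 0.0682) or CD44low library 1 (adjusted p = 0.0694).

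**Figure D2:**
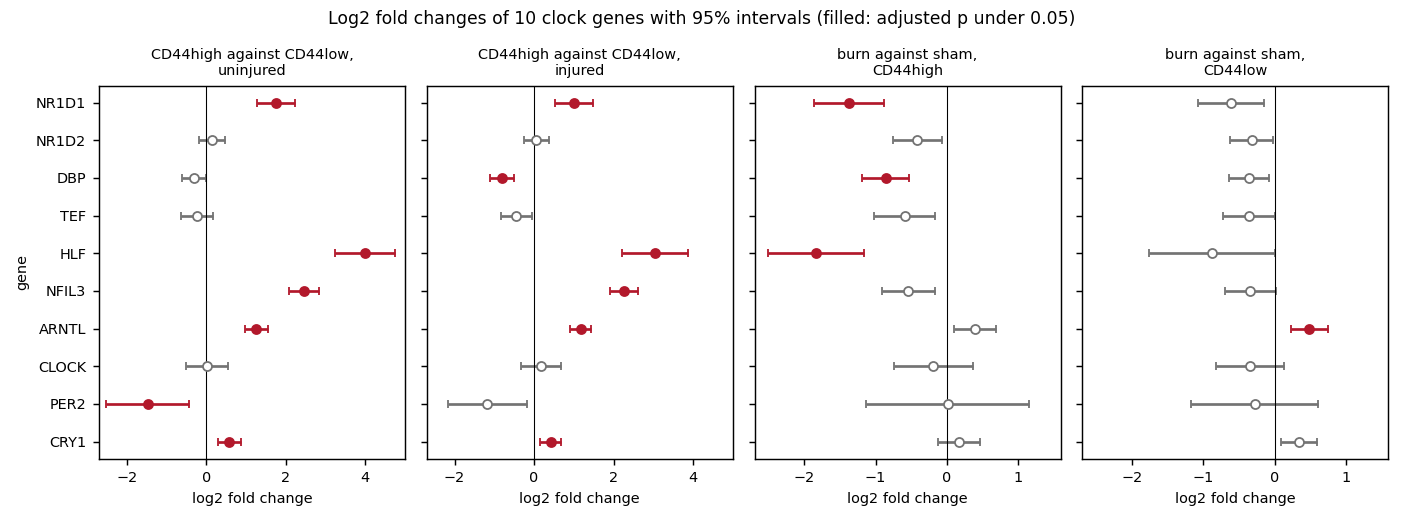
Log2 fold changes of the 10 clock genes (points, x axis) with 95% intervals (lines) in the 4 comparisons, filled where the adjusted p was under 0.05; the x axis differs between the subset panels and the injury panels. HLF, NFIL3, NR1D1, ARNTL and CRY1 lie above 0 in both subset panels, and NR1D1, DBP and HLF lie below 0 with filled points after burn in CD44high Tregs.

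In injured mice 5 clock genes were again higher and 1 was lower in CD44high Tregs, against 20.1% of all genes higher and 17.2% lower. HLF, NFIL3, NR1D1, ARNTL and CRY1 were higher as in uninjured mice, which share no library with this comparison, and the gene that was lower was DBP. The log2 fold changes of all 10 genes had the same sign in both comparisons, with a median of 0.30 in injured mice (all genes tested -0.00). The share of all genes with the same sign was not counted. The groups did not overlap for 6 clock genes, against 24.8% of all genes, and 3 clock genes passed at an unadjusted p under 1e-06 and 2-fold (HLF, NFIL3 and ARNTL), with 6% of all genes.

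HLF measured 3.72, 8.47, 10.2 and 4.58 CPM in injured CD44high Tregs and between 0.249 and 1.50 CPM, with a median of 0.806, in the 6 injured CD44low libraries. The subsets stayed apart, although the CD44low values rest on 32 counts in 6 libraries. The log2 fold change of HLF was 3.04 ± 0.40 (edgeR adjusted p = 5.40e-07). NFIL3 was 51.6 ± 1.69 CPM against 10.7 ± 1.97, a log2 fold change of 2.26 ± 0.17 (edgeR adjusted p = 2.45e-10). NR1D1 was 14.6 ± 3.65 against 7.33 ± 2.14 CPM, with the lowest CD44high value (11.0) above the highest CD44low value (9.45) and a log2 fold change of 0.99 ± 0.23 (edgeR adjusted p = 0.00141). With a replicate block on the number in the titles within injury state, NR1D1 gave 0.75 and did not pass (edgeR adjusted p = 0.0582).

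ARNTL was 84.9 ± 3.96 CPM in injured CD44high and 37.6 ± 6.92 in injured CD44low Tregs, a log2 fold change of 1.17 ± 0.13 (edgeR adjusted p = 1.23e-07). CRY1 was 131 ± 6.82 against 98.6 ± 6.33 CPM, and its log2 fold change of 0.42 ± 0.13 passed (edgeR adjusted p = 0.0131), though not when the 3 injured CD44low libraries with a second number in their titles were left out (adjusted p = 0.0774). The labels do not explain this second number. DBP measured 24.8, 28.1, 27.1 and 28.0 CPM in injured CD44high Tregs and between 32.0 and 61.9 CPM, with a median of 48.2, in injured CD44low Tregs. No DBP values overlapped, and the log2 fold change was -0.81 ± 0.15 (edgeR adjusted p = 0.000127).

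DBP shares 539 exon bases, 18.0% of its exon length in GENCODE vM21, with SPHK2 on the opposite strand, and the strand setting of the counts is not given, so reads of both genes cannot be told apart there. SPHK2 was itself lower in CD44high Tregs, by a log2 fold change of -0.49 ± 0.11 in uninjured (edgeR adjusted p = 0.000730) and -0.72 ± 0.10 in injured mice (edgeR adjusted p = 7.41e-06). Its part in the DBP values was not tested. TEF, with a log2 fold change of -0.45 ± 0.19 (edgeR adjusted p = 0.0674), and PER2, with -1.18 ± 0.48 (edgeR adjusted p = 0.0596), did not pass in injured mice. Both passed in DESeq2 (adjusted p = 0.0469 and 0.0324) and without injured CD44low library 1 (edgeR adjusted p = 0.0186 and 0.0144). Both values depended on the second-number libraries. With these left out, TEF was at -0.32 (edgeR adjusted p = 0.238) and PER2 at -0.63 (edgeR adjusted p = 0.390). With these alone, TEF was at -0.59 (edgeR adjusted p = 0.0289) and PER2 at -1.62 (edgeR adjusted p = 0.00669). NR1D2 had a log2 fold change of 0.06 with a 95% interval of -0.26 to 0.37 and CLOCK 0.18 with -0.32 to 0.69.

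The second question is how injured and uninjured mice differed within each subset. The hour of collection is not given, and its part in these differences was not tested. In CD44high Tregs, 3 of the 10 clock genes fell after injury (NR1D1, DBP and HLF) and 0 rose. Of all genes tested, 1.33% fell and 1.06% rose. The median log2 fold change of the 10 genes was -0.48, against -0.02 for all genes tested, and 7 of the 10 values were below 0. Injured and uninjured libraries did not overlap for 6 clock genes (NR1D1, DBP, HLF, TEF, NFIL3 and ARNTL), against 13.3% of all genes. At an unadjusted p under 1e-06 and 2-fold, 0 clock genes passed and 0.148% of all genes did, while 7 clock genes had an unadjusted p under 0.05 in edgeR, against 15.1% of all genes.

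HLF fell in CD44high Tregs from 22.9 to 27.4 CPM in uninjured mice to the 3.72 to 10.2 CPM given above for injured mice, with a log2 fold change of -1.84 ± 0.33 (edgeR adjusted p = 0.00267), a 3.57-fold drop. The 4 uninjured libraries were close to one another, and injured libraries 2 and 5 were lower than 3 and 4. DBP fell from 42.4, 58.2, 46.0 and 49.2 CPM to 24.8, 28.1, 27.1 and 28.0 CPM. All injured values lay below all uninjured ones, with a log2 fold change of -0.86 ± 0.16 (edgeR adjusted p = 0.00338). SPHK2, the gene that overlaps DBP, changed by -0.21 ± 0.11 in the same comparison (edgeR adjusted p = 0.406).

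NR1D1 fell from the 44.2, 46.8, 28.2 and 32.8 CPM of uninjured mice to 12.0, 18.4, 16.9 and 11.0 CPM in injured mice. The ranges were apart, and the log2 fold change was -1.38 ± 0.24 (edgeR adjusted p = 0.00201), a 2.59-fold drop. NR1D1 shares 263 exon bases, 8.55% of its exon length, with THRA on the opposite strand. THRA, a thyroid hormone receptor, fell in the same comparison from 11.4 ± 1.16 to 5.07 ± 1.13 CPM (log2 fold change -1.15 ± 0.27, edgeR adjusted p = 0.0215). In CD44low Tregs THRA had a log2 fold change of -0.57 ± 0.23 after injury (edgeR adjusted p = 0.118). Its part in the NR1D1 values was not tested.

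Among the genes that did not pass in CD44high Tregs, TEF went from 38.7 ± 3.40 to 25.7 ± 4.50 CPM (log2 fold change -0.59 ± 0.21, edgeR adjusted p = 0.153). NFIL3 went from 74.9 ± 13.4 to 51.6 ± 1.69 CPM (-0.54 ± 0.18, edgeR adjusted p = 0.125), and ARNTL went the other way from 64.2 ± 3.24 to 84.9 ± 3.96 CPM (0.40 ± 0.14, edgeR adjusted p = 0.155). Injured ARNTL libraries measured 88.4, 87.9, 82.8 and 80.3 CPM, all above the highest uninjured value of 66.9. When CD44high Tregs were fitted alone, these 3 genes passed as well (edgeR adjusted p = 0.0473 for TEF, 0.0416 for NFIL3 and 0.0289 for ARNTL), which made 6 calls in place of 3. Calls over all genes rose too in that fit, to 278 higher and 323 lower of 11106 genes from 121 and 152 of 11464.

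NR1D2 went from 68.4 ± 7.38 to 51.2 ± 7.12 CPM in CD44high Tregs, a log2 fold change of -0.42 with a 95% interval of -0.76 to -0.07 and an edgeR adjusted p of 0.213. CLOCK had a log2 fold change of -0.19 with a 95% interval of -0.74 to 0.36 and CRY1 0.17 with -0.12 to 0.46. PER2 had one of 0.01 with -1.13 to 1.15, an interval wide enough to hold a 2-fold change in either direction. With any one of the 19 libraries left out, NR1D1, DBP and HLF passed in every case, with edgeR adjusted p up to 0.0134, 0.0201 and 0.0172.

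In CD44low Tregs, 1 clock gene rose after injury (ARNTL) and 0 fell, against 4.24% of all genes that rose and 3.36% that fell. The median log2 fold change of the 10 genes was -0.34, against 0.01 for all genes tested. Injured and uninjured libraries overlapped for all 10 clock genes, and for all but 4.68% of all genes. At an unadjusted p under 1e-06 and 2-fold, 0 clock genes and 0.122% of all genes passed, and 6 clock genes had an unadjusted p under 0.05 in edgeR, against 26% of all genes.

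ARNTL rose from 23.9, 27.6, 26.8, 23.0 and 32.7 CPM in uninjured CD44low Tregs to between 25.4 and 44.1 CPM in injured ones, with a median of 40.3. Of the 6 injured libraries, library 4_2 alone lay within the uninjured range and the others lay above it. The log2 fold change was 0.49 ± 0.13 (edgeR adjusted p = 0.0230). It was 0.65 without the 3 libraries with a second number (adjusted p = 0.00143) and 0.33 with those 3 alone (adjusted p = 0.202), and it missed the threshold when CD44low Tregs were fitted alone (adjusted p = 0.0805).

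The other clock genes of CD44low Tregs did not pass in edgeR over all 19 libraries. NR1D1 went from 11.2 ± 2.05 to 7.33 ± 2.14 CPM (log2 fold change -0.61 ± 0.22, edgeR adjusted p = 0.0871), and the value passed without library 5_2 (adjusted p = 0.0480). DBP went from 60.9 ± 6.21 to 47.5 ± 10.1 CPM (-0.36 ± 0.13, edgeR adjusted p = 0.0907). For DBP the libraries without a second number gave -0.59 (adjusted p = 0.00888) and those with one -0.14 (adjusted p = 0.599). CRY1 went from 77.9 ± 17.8 to 98.6 ± 6.33 CPM (0.34 ± 0.12, edgeR adjusted p = 0.0846). HLF had a log2 fold change of -0.88 with a 95% interval of -1.76 to 0.01, at levels near 1 CPM. NR1D2 had -0.32 (-0.62 to -0.03), TEF -0.36 (-0.73 to 0.00), NFIL3 -0.34 (-0.70 to 0.02), CLOCK -0.35 (-0.82 to 0.13) and PER2 -0.28 (-1.17 to 0.61). Some of these values passed under other settings. CLOCK passed at -0.79 when the second-number libraries were dropped (adjusted p = 0.0377) and was 0.028 with those alone (adjusted p = 0.965). NR1D2 passed without library 5_2 (adjusted p = 0.0409), and CRY1 passed in DESeq2 (adjusted p = 0.0410) and without uninjured library 2 (adjusted p = 0.0320).

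The 2 injury comparisons share no library, but the labels do not say whether the subsets were sorted from the same mice. In both, NR1D1, NR1D2, DBP, TEF, HLF, NFIL3 and CLOCK had log2 fold changes below 0, 7 genes, and ARNTL and CRY1 had values above 0, 2 genes, while the sign of PER2 differed. Thus 9 of the 10 genes had the same sign after injury in both subsets, most of them without passing the test. How many of all genes tested had the same sign was not counted, so this agreement has no background beside it. The comparisons may also not be independent. The part of shared mice or of the hour of collection in this agreement was not tested. With the second-number libraries used alone, CLOCK and PER2 of CD44low Tregs changed sign (0.028 and 0.15).

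Whether the injury changed a clock gene differently in the subsets was tested as the interaction in edgeR. Here 0 of 10 clock genes passed at an adjusted p under 0.05, by edgeR and by DESeq2, and 0 at the stricter threshold, while 0.645% and 0.0872% of all genes did. At an unadjusted p under 0.05 in edgeR, which 10.9% of all genes met, 2 clock genes passed, NR1D1 with a log2 difference of -0.77 (95% interval -1.44 to -0.09) and DBP with -0.50 (-0.93 to -0.07). The difference for HLF was -0.96 with an interval of -2.07 to 0.16, and for ARNTL -0.09 with -0.48 to 0.31. So the calls of NR1D1, DBP and HLF in CD44high Tregs and of ARNTL in CD44low Tregs were not shown to differ between the subsets.

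Within groups, some clock genes varied together from library to library. After the mean of each group was taken away, log2 CPM of NR1D2 and TEF had a Pearson r of 0.93 over the 19 libraries, TEF and PER2 one of 0.75, and NR1D2 and PER2 one of 0.65. The lowest of the 45 pairs was HLF with NFIL3, at -0.46. These values describe single libraries measured once for both genes, which share depth and preparation, and no test was made. The pairs named first were the highest of the 45, and other gene pairs were not counted beside them. NR1D2, TEF and PER2 spread most in injured CD44low Tregs, with SDs of log2 CPM of 0.36, 0.43 and 1.23. In the other groups the SDs were at most 0.20, 0.29 and 0.61. Their r over 19 libraries thus weighs that group most, and r in each group alone was not computed.

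PER2 was the most uneven of the clock genes in both CD44low groups, though not in the CD44high groups. In injured CD44low Tregs it measured 1.49, 2.49 and 3.45 CPM in libraries 1, 2 and 1_2 and 10.3, 11.9 and 12.3 CPM in libraries 5, 4_2 and 5_2. Both levels included libraries with and without a second number. TEF was 23.4, 29.8 and 26.0 CPM in the former libraries and 43.6, 38.1 and 50.3 CPM in the latter. NR1D2 was 37.2, 48.7 and 34.1 CPM and then 54.9, 53.4 and 66.9 CPM. For all 3 genes the 6 libraries thus fell into the same higher and lower sets, and the SD of log2 CPM of PER2 was 1.23 in this group against 0.34 in uninjured CD44high Tregs.

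**Figure D3:**
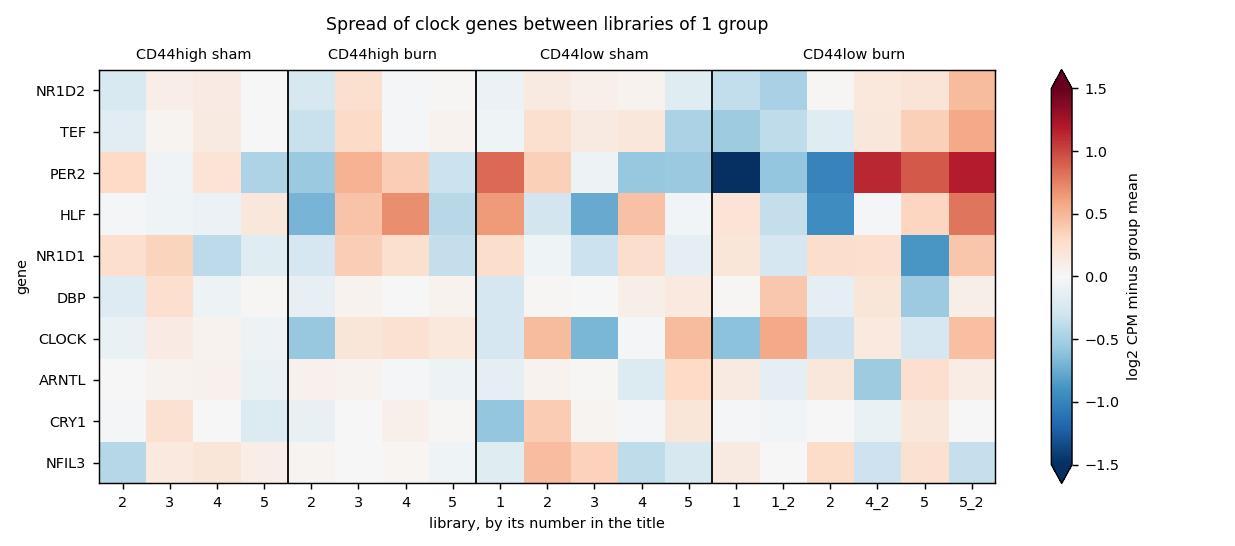
Log2 CPM of each clock gene minus the mean of its group (colour, cut at 1.5 either way) for the 19 libraries (x axis, by group and number). NR1D2, TEF and PER2 lie below the mean of injured CD44low Tregs in libraries 1 and 1_2 and above it in libraries 4_2, 5 and 5_2, and PER2 of injured CD44low library 1 lies beyond the colour scale at -1.65.

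The genes whose pattern came nearest to NR1D1 were sought by the same within-group r over 19 libraries among all 11464 genes. The highest were PLPPR3 (0.83), OTUD5 (0.82), ADGRE5 (0.80), DDX10 (0.80) and HPS1 (0.78), and the lowest were FAR2 (-0.75), LSM1 (-0.75), DHRS4 (-0.74), AKR1C13 (-0.73) and WDR4 (-0.72). For ARNTL the highest were ZFP790 (0.87), RBM12B1 (0.87), WDHD1 (0.84), TSTD2 (0.83) and ORC3 (0.82). The lowest for ARNTL were CEP164 (-0.83), TRABD (-0.81), MSI2 (-0.80), CRLF2 (-0.80) and H2-DMA (-0.80). No clock gene is among these 20 names, and they are extremes picked from many genes.

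A wider list of 33 clock genes, which covers further activators and repressors, ROR receptors, kinases, ubiquitin ligases, coregulators and outputs, had 29 genes that passed the filter. In uninjured mice 8 of the 29 were higher and 6 lower in CD44high Tregs, with a median log2 fold change of 0.078. The shares of all genes were 24.7% higher and 21.3% lower. RORA, the receptor that opposes NR1D1 at ROREs, averaged 309 ± 22.6 CPM against 35.8 ± 2.69, a log2 fold change of 3.11 ± 0.11 (edgeR adjusted p = 7.61e-16). WEE1, a cell cycle kinase under E-box control, was higher by 2.39 ± 0.27 (edgeR adjusted p = 1.19e-07) and TIPIN, the partner of TIMELESS, by 1.50 ± 0.15 (edgeR adjusted p = 3.05e-08). CRY2 differed in direction from CRY1 and was lower in CD44high Tregs, at 12.0 ± 3.37 against 34.8 ± 9.25 CPM, with a log2 fold change of -1.53 ± 0.26 (edgeR adjusted p = 4.82e-05). The coactivator CREBBP (-1.24 ± 0.27, edgeR adjusted p = 0.000764) and the kinase subunit PRKAA1 (-0.58 ± 0.14, edgeR adjusted p = 0.00136) were lower too.

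In injured mice 6 of the 29 were higher and 4 lower in CD44high Tregs, with a median of 0.11, against 20.1% of all genes higher and 17.2% lower. RORA (2.47 ± 0.10, edgeR adjusted p = 1.54e-14), WEE1 (1.95 ± 0.25, edgeR adjusted p = 1.18e-06) and TIPIN (0.77 ± 0.15, edgeR adjusted p = 0.000205) were higher, and CRY2 (-1.03 ± 0.24, edgeR adjusted p = 0.00210) and CREBBP (-0.92 ± 0.26, edgeR adjusted p = 0.00772) were lower. PER1, the period gene induced by many stimuli, was lower by -1.12 ± 0.39 (edgeR adjusted p = 0.0282). This rested on injured CD44low libraries 4_2 and 5_2, at 34.7 and 26.0 CPM where the other 4 measured 5.11 to 11.4, and when the second-number libraries were dropped the log2 fold change of PER1 was -0.02 (adjusted p = 0.970). For CREBBP it was then -0.32 (adjusted p = 0.310).

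After injury 0 of the 29 genes passed in CD44high Tregs in edgeR, where 1.06% of all genes rose and 1.33% fell, and 2 passed in DESeq2. At an unadjusted p under 0.05, 4 did, all with lower values, against 15.1% of all genes. In CD44low Tregs 5 fell and 0 rose, against 3.36% and 4.24% of all genes. The kinase GSK3B fell by 0.51 (SE 0.11, edgeR adjusted p = 0.00846), TIMELESS by 0.55 (SE 0.13, edgeR adjusted p = 0.0142) and PRKAA1 by 0.49 (SE 0.12, edgeR adjusted p = 0.0172) on the log2 scale, and the other two, named after their values were seen, were CSNK2A1 and SIRT1. PRKAA1 missed the threshold without uninjured CD44low library 2 or 3 (adjusted p = 0.0676 and 0.0521), and with the second-number libraries dropped (0.0501) or alone (0.0612). GSK3B missed it with those libraries alone (adjusted p = 0.0721) and TIMELESS with them dropped (adjusted p = 0.0548). In the interaction, where 0.645% of all genes passed, RORA passed with a log2 difference of -0.64 ± 0.15 (edgeR adjusted p = 0.0426), since it averaged 309 CPM in uninjured and 235 in injured CD44high Tregs and 35.8 and 42.4 in CD44low Tregs. That call was lost when any one of 14 of the 19 libraries was left out, with adjusted p from 0.0174 to 0.111 over the 19.

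**Figure D4:**
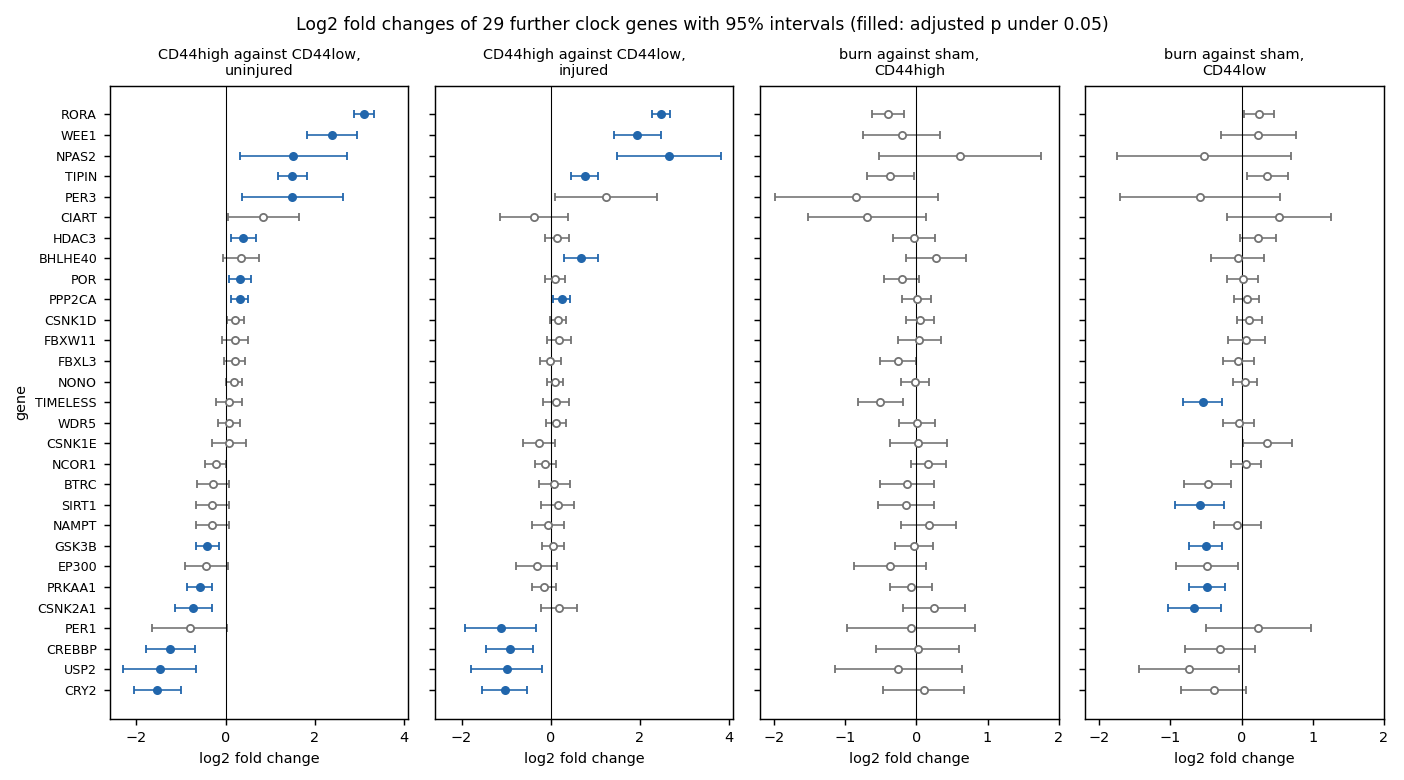
Log2 fold changes of 29 further clock genes (points, x axis) with 95% intervals (lines) in the 4 comparisons, filled where the adjusted p was under 0.05 and ordered by the uninjured subset comparison; the x axis differs between the subset panels and the injury panels. RORA, WEE1 and TIPIN lie to the right and CRY2 and CREBBP to the left in both subset panels, and the panel of burn in CD44high Tregs has no filled point.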

How the data were processed

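Bulk RNA-seq of 19 Treg libraries was taken from the table of raw counts per gene that the authors deposited, made from cDNA of a SMART-Seq kit without molecular identifiers and without normalization. The submitters' processing notes name bcl2fastq 2.18, STAR 2.5 and both mm9 and mm10, so the build of the counts is not settled, and annotation and strand setting are named by no source used here. All 19 columns matched a sample by their labels, and 0 columns were left unmatched. No 2 libraries of a group agreed within counting noise.

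The counts were analysed in R 4.3.3 with edgeR 4.0.16 and limma 3.58.1 (filterByExpr with a minimum count of 10, which left 11464 of 24982 genes, TMM factors, 1 mean per group, quasi-likelihood test, two-sided, Benjamini-Hochberg over all genes tested). A gene was called at an adjusted p under 0.05. Intervals of 95% and standard errors are derived from the quasi-likelihood fit. The stricter threshold was an unadjusted p under 1e-06 with a change of 2-fold. Log2 CPM used a prior count of 2. Depth was 5582234 to 9433610 counts per library, so genes of low level carry wide intervals. Alternatives were DESeq2 1.42.0, RLE factors, a fit of only the 2 groups compared, replicate blocks, no filter, the second-number libraries omitted, taken alone or summed with their namesakes, and each library left out. A bias-adjusted quasi-likelihood fit was chosen after seeing the data. The scripts were tested on simulated data. Exon overlaps came from GENCODE vM21 and promoters from RefSeq (GRCm38.p6). Figures were drawn in Python 3.11.15 with matplotlib 3.10.9.

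The genes, lists and motifs were chosen with earlier results of these data known. All 10 clock genes are named, and of the wider list, for each comparison and direction, the 3 of smallest p among those called. The genes of like pattern are the 5 highest and 5 lowest in r with NR1D1 and with ARNTL. Results of an item withheld for evaluation are not reported here, and it was left out of the wider list.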

Additional observations from a re-analysis of the deposited data

Results flagged for a closer look

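In 40 groups of values, 10 clock genes in 4 groups, 1 library stood apart from the others of its group 2 times by Dixon's test at 95%, which chance gives in about 1 of 20 groups. CLOCK was 10.6 CPM in injured CD44high library 2, where the other 3 libraries measured 17.7 to 18.6 CPM. NFIL3 was 54.9 CPM in uninjured CD44high library 2, where the others measured 79.4 to 83.6 CPM, and the injury comparison of NFIL3 in CD44high Tregs did not pass the test with or without that library.

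RORA of the wider list changed differently after injury in the subsets, by a log2 difference of -0.64 in the interaction test of edgeR (adjusted p = 0.0426). The call was lost with any one of 14 of the 19 libraries left out (adjusted p up to 0.111) and without a filter on low counts (adjusted p = 0.0543).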

How the results depend on the processing

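HLF, NFIL3 and ARNTL kept their direction and their side of the adjusted p of 0.05 in both subset comparisons under every alternative run, and so did NR1D1, DBP and HLF after injury in CD44high Tregs. The number of clock genes called ranged, with 1 library left out, from 5 to 7 between subsets in uninjured mice, 6 to 8 in injured mice, 3 to 3 after burn in CD44high, 1 to 3 in CD44low Tregs and 0 to 0 for the interaction. Under the stricter threshold 3 were called in injured mice and 0 after burn in either subset. After burn, the compared groups alone gave 6 in CD44high and 0 in CD44low Tregs, DESeq2 gave 2 in CD44low, and omitting the second-number libraries, or using no others of their group, gave 3 and 0 in CD44low. Of the wider list, omitting them gave 6 calls between subsets in injured mice. After burn in CD44high Tregs the wider list gave 2 in DESeq2, 1 in the compared groups alone, 2 and 1 with the second-number libraries left out and alone, 1 with them summed, 2 in the bias-adjusted fit, and 0 to 1 with 1 library left out. In CD44low Tregs it gave 2 with the second-number libraries alone and 3 to 7 with 1 library left out, and for the interaction 2 in DESeq2, 0 without a filter and 0 to 2 with 1 library left out. The cause was not tested.

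The title's number was not taken to pair the libraries, since the same-number correlation of deviations over all genes was -0.01 to 0.12 in uninjured and -0.05 to 0.17 in injured mice, and not every library correlated best with its own number. Correlations this low over few libraries cannot decide whether the number marks mice, so fits with a block are given as well. With a replicate block on that number 6, 6, 3, 1 and 0 clock genes were called in the order above, with CRY1 of injured mice not called (adjusted p = 0.109), and the wider list gave 3 after burn in CD44low Tregs, where PRKAA1 was not called (adjusted p = 0.0693), and 0 for the interaction, where RORA was at 0.0776. A block within injury state gave 6 and 7 clock genes between subsets and 0 for both lists in the interaction, and NR1D1 of injured mice was then at an adjusted p of 0.0582 and RORA in the interaction at 0.273. Log2 values of uncalled genes that changed sign were NR1D2 between subsets in injured mice (-0.085 and -0.18 with either block) and PER2, at -0.030 with the block and -0.0047 in DESeq2 after burn in CD44high Tregs and -0.43 for the interaction with the block within injury state.

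With the second-number libraries alone, signs changed for NR1D2 (-0.035) and CLOCK (-0.19) between subsets in injured mice, PER2 (0.15) and CLOCK (0.028) after burn in CD44low Tregs, and PER2 (-0.13), ARNTL (0.087), CLOCK (-0.20) and NFIL3 (0.035) in the interaction. With 1 library left out, the log2 value ran from -0.13 to 0.14 for CLOCK in uninjured and -0.035 to 0.15 for NR1D2 in injured mice between subsets, from -0.19 to 0.19 for PER2 after burn in CD44high and -0.50 to 0.026 in CD44low Tregs, and from -0.18 to 0.010 for NR1D2 in the interaction. Over all genes, calls after burn were 121 higher and 152 lower in CD44high Tregs, 278 and 323 with these fitted alone, and 193 and 283 in DESeq2. In CD44low Tregs 486 and 385 became 923 and 528 in DESeq2, 303 and 142 with the second-number libraries alone, and 1122 and 771 without library 5_2. The interaction gave 22 and 52, and 58 and 159 in DESeq2. With 1 library left out, 2564 to 2943 genes were higher and 2120 to 2580 lower between subsets in uninjured mice. In injured mice these were 1999 to 2398 and 1567 to 2202. After burn they were 78 to 166 and 71 to 187 in CD44high, and 303 to 1122 and 175 to 771 in CD44low Tregs. The block on the title's number gave 2800 and 2420, 2137 and 1805, 111 and 132, 218 and 222, and 17 and 40 in the order above.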
